A study of Homo sapiens with 8 samples.

Results

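The 41 genes described here are targets or effectors of *ATF4* and of the unfolded protein response. They were found by gene symbol in RNA-seq tables of HEK293T cells, a human embryonic kidney cell line. All 41 were among the 19770 genes in the files and among the 15122 genes tested. They were divided by function into an amino acid/ATF4 arm of 24 genes and an ER chaperone arm of 17 genes.

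The study asked how specific CRISPR-DREAM, a dCas9-based transcriptional activator, was across the transcriptome. Each group held 2 libraries, prepared 72 h post-transfection. The control group received nuclease-deactivated Cas9 (dCas9) with MCP-mCherry, a fluorescent protein fused to the coat protein that binds MS2 stem-loops in the gRNA. CRISPR-DREAM was dCas9 with MCP-MSN, in which the coat protein carries activation domains of human mechanosensitive transcription factors. The SAM system was dCas9-VP64 with MCP-p65-HSF1. dCas9-VPR, a single fusion protein, was used without a coat protein partner. All 4 groups carried a gRNA pool against *HBG1*/*HBG2*, with MS2 stem-loops except for dCas9-VPR, and all were transiently transfected, so a bulk library mixes cells that took up more or less plasmid. An untransfected group and a non-targeting gRNA group were not analysed here. The dCas9-VPR group thus differed from the control in the gRNA backbone and the number of effector plasmids as well as in the effector, and these cannot be told apart.

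ATF4 is a bZIP transcription factor whose translation rises when the initiation factor eIF2 is phosphorylated, as happens in amino acid shortage, ER stress and other stresses. It turns on genes for amino acid synthesis and uptake, and genes such as *DDIT3* (CHOP) that act in prolonged stress. The unfolded protein response of the ER runs through the sensors PERK, IRE1 and ATF6. PERK feeds into ATF4, whereas IRE1 (through splicing of *XBP1* mRNA) and ATF6 raise chaperones and genes for ER-associated degradation. Total RNA of *ATF4* and *XBP1* therefore reports neither ATF4 protein nor spliced *XBP1*.

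The DNA elements read by these factors were looked for in the promoters of the 41 genes. RefSeq promoter windows of 300 bases (250 before to 50 after the start, build GRCh38.p14) matched 36 of the 41 genes by symbol, 20 in the ATF4 arm and 16 in the ER chaperone arm. Some genes had more than 1 window, with 29 in the ATF4 arm and 19 in the ER chaperone arm. A gene was counted where any of its windows held an element. Both strands were searched. The core of the C/EBP-ATF response element (CARE, letters TGATGNAAN) was in the windows of 5 of 20 genes of the ATF4 arm (*ASNS*, *CEBPG*, *CHAC1*, *SLC3A2* and *SLC7A1*), in 1 of 16 of the ER chaperone arm (*HERPUD1*) and in 4.45% of 27305 genes. The 3 below lie upstream of the RefSeq start, though inside the gene positions of the files. They are shown because they belong to genes of the ATF4 arm that fell with at least 2 of the activators. Each is printed along the strand of its gene, and capitals mark the fixed letters of the element or of its reverse complement.

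*ASNS*, chr7:97872453-97872491, minus strand: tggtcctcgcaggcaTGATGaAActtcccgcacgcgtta
*CEBPG*, chr19:33374056-33374094, plus strand: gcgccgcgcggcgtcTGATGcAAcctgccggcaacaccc
*CHAC1*, chr15:40953246-40953284, plus strand: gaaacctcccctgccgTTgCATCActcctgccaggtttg

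The ER stress response element (ERSE), CCAAT and CCACG separated by 9 bases, was in the windows of 6 of 16 genes of the ER chaperone arm (37.5%: *CALR*, *CRELD2*, *HSP90B1*, *HSPA5*, *PDIA6* and *XBP1*), in 0 of 20 of the ATF4 arm and in 0.0916% of all genes. ERSE-II, ATTGG and CCACG separated by 1 base, was in 3 of 16 (18.8%: *HERPUD1*, *HYOU1* and *SDF2L1*), in 0 of 20 of the ATF4 arm and in 0.0696% of all genes. The 6 below come from the genes of the ER chaperone arm that fell with the SAM system, with capitals on the paired boxes. Those of *HSP90B1*, *HYOU1* and *CRELD2*, which did not fall, are not printed.

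*HSPA5*, ERSE, chr9:125241376-125241424, minus strand: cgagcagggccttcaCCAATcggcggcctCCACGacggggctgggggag
*XBP1*, ERSE, chr22:28800588-28800636, minus strand: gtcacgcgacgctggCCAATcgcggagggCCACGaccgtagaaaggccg
*CALR*, ERSE, chr19:12938369-12938417, plus strand: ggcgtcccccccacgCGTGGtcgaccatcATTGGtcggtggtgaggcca
*PDIA6*, ERSE, chr2:10812838-10812886, minus strand: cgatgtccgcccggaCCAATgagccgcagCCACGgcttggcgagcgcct
*SDF2L1*, ERSE-II, chr22:21642099-21642139, plus strand: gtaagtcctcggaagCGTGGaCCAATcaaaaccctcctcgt
*HERPUD1*, ERSE-II, chr16:56932010-56932050, plus strand: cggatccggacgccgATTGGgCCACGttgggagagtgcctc

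*HERPUD1* held both kinds of element, with its CARE core in chr16:56931950-56931988 (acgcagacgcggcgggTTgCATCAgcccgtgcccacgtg). The cAMP response element TGACGTCA was in the window of *PPP1R15A* and of 2.25% of all genes, and the letters TGACGTGG of the unfolded protein response element were in that of *HYOU1*, overlapping an ERSE-II, and of 0.927% of all genes. These matches describe letters in a window and do not show that a factor bound there. Since the genes were chosen as targets or effectors of these pathways, shares above those of all genes are not a finding of these data.

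Values are CPM (read counts scaled to the same total over the genes of each file), so they are shares of a library. In bulk samples fewer expressing cells and less RNA per cell cannot be told apart. The depth estimated from the smallest CPM steps was 28.45 to 35.14 M reads per library, and 3 reads were worth 0.0854 to 0.105 CPM, below the level of each of the 41 genes. The targeted gene *HBG2* was at 1.29 and 0.837 CPM in the control libraries and between 201.3 and 2874 CPM in the 6 activator libraries. Of the markers of the line, *KRT18* was at 79.7 to 101 CPM, *NEFM* at 13.9 to 24.0 CPM and *PAX2* at 0.798 to 1.73 CPM across the libraries, and *KRT8* was at 45.2 to 50.2 CPM in the controls and 78.5 to 113 CPM with the activators. The endothelial marker *PECAM1* was at 0.0321 to 1.17 CPM with the activators, highest with the SAM system, and at 0.0319 and 0.130 CPM in the control. The part of these marker differences in the results was not tested.

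Differences were fitted with limma on log2(CPM + 0.5) across the 15122 genes, and a gene rose or fell where its Benjamini-Hochberg adjusted p was below 0.05. The trend and robust options of limma were used, and without them 19 of the 75 calls among the 41 genes were not past the threshold. Log2 fold changes below are on that scale and are given with their standard error. The 3 comparisons with the control share the same 2 control libraries. Without an untransfected group, a fall with the activators and a higher level in the control cannot be told apart. At this group size the smallest p of an exact permutation test (two-sided) on 1 gene is 0.333, so the calls rest on the spread that limma pools over genes. The labels do not say whether the libraries of a group came from separate cultures, and the p-values may then measure technical spread.

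In the amino acid/ATF4 arm, 13 of the 24 genes fell with CRISPR-DREAM and 0 rose. Of all genes tested, 9.25% fell and 18.8% rose in that comparison. With the SAM system 14 fell and 1 rose, where 8.89% of all genes fell and 35.7% rose. With dCas9-VPR 10 fell and 0 rose, where 6.68% fell and 11% rose. The median log2 fold change of the arm was -0.21, -0.21 and -0.18 in that order, against 0.06, 0.16 and 0.06 over all genes tested. In 13 of the 24 genes, each of the 6 activator libraries lay below both control libraries, which was so for 9.17% of all genes tested. Without SAM replicate 2 the count that fell with the SAM system was 8, and without control replicate 2 or dCas9-VPR replicate 1 the count that fell with dCas9-VPR was 6.

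The scale of the SAM libraries bears on these counts. Median-of-ratios scaling, which takes the typical gene as unchanged, brought the median of all genes with the SAM system from 0.16 to 0.02. Under it the ATF4 arm had 15, 16 and 12 genes that fell with CRISPR-DREAM, SAM and dCas9-VPR and 0 that rose. The shares of all genes that fell became 13.2%, 18.1% and 9.16%, and the shares that rose became 14.5%, 20.9% and 7.78%.

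*ATF4* itself (chr22:39519672-39522684) was at 1128 and 1199.8 CPM in the controls, 972 and 969.5 CPM with CRISPR-DREAM, 969 and 997 CPM with the SAM system and 947 and 1002 CPM with dCas9-VPR. The 6 activator libraries lay within a narrow band below both control libraries. Log2 fold changes were -0.26, -0.24 and -0.26 (standard error 0.05 in each, limma adjusted p = 0.00353, 0.00319 and 0.00791). The dCas9-VPR call was lost without control replicate 2 or dCas9-VPR replicate 1, and in a fit without the trend and robust options of limma.

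*DDIT3* (chr12:57516588-57521738), which encodes the stress factor CHOP, changed most of the 41 genes in each comparison with the control. It was at 87.6 and 97.9 CPM in the control libraries, against 44.3 and 40.3 CPM with CRISPR-DREAM. It was at 45.8 and 40.6 CPM with the SAM system and at 31.8 and 32.6 CPM with dCas9-VPR, the lowest pair. These were falls of 2.18-fold, 2.13-fold and 2.85-fold (log2 fold changes -1.12, -1.09 and -1.51, standard error 0.08 in each, limma adjusted p = 1.5e-05, 1.79e-05 and 9.38e-06). *DDIT3* lies on the opposite strand to *MARS1*, a methionyl-tRNA synthetase gene that it overlaps. *MARS1* was at 588 and 605 CPM in the control libraries and at 506 to 585 CPM with the activators, with log2 fold changes of -0.05, -0.06 and -0.21. The strand setting of the counting is not given in the sources used here.

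Of the other transcription factors, *CEBPG*, a bZIP partner of ATF4, was at 253 and 252 CPM in the control libraries and at 179.6 to 225 CPM with the activators, and it fell with each of the 3 activators (log2 fold changes -0.33, -0.25 and -0.40). Leaving out control replicate 2 ended each of those calls for *CEBPG*, and leaving out control replicate 1 or the second replicate of the activator ended 2 or more of them, and a fit without the trend and robust options ended all 3. *CEBPB* ranged from 26.3 to 35.1 CPM over the 8 libraries with no difference past the threshold. *NUPR1*, a small stress-induced regulator, was at 21.4 and 20.02 CPM in the controls, 25.5 and 21.2 CPM with CRISPR-DREAM, 28.5 and 24.6 CPM with the SAM system and 21.9 and 17.8 CPM with dCas9-VPR. It was the 1 gene of the arm that rose with the SAM system (log2 fold change 0.35, standard error 0.12, limma adjusted p = 0.0423). That call ended under median-of-ratios scaling (log2 fold change 0.20) and without either control replicate or SAM replicate 1.

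**Figure D1:**
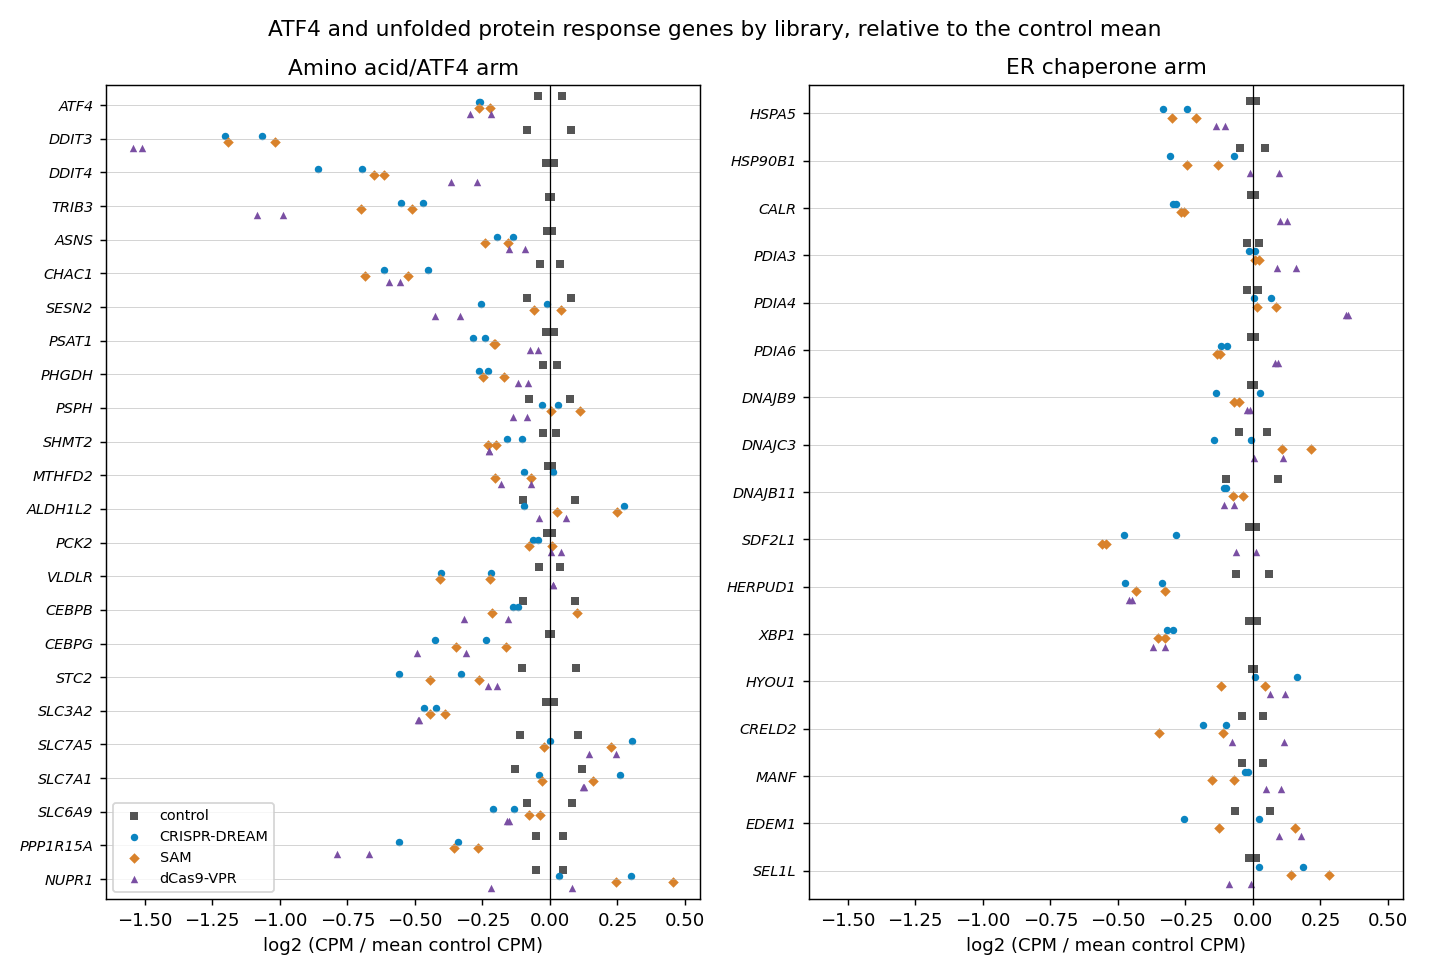
Each point is the log2 ratio of a gene's CPM in a library to its mean CPM in the 2 control libraries, for the 24 genes of the amino acid/ATF4 arm (left) and the 17 of the ER chaperone arm (right), with groups by colour. *DDIT3* lies farthest to the left, *ATF4* holds the 6 activator libraries together below the control, and *PDIA4* has the dCas9-VPR libraries alone to the right.

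Of the 5 feedback and stress effectors, 4 fell with CRISPR-DREAM, 4 with SAM and 5 with dCas9-VPR, where 9.25%, 8.89% and 6.68% of all genes fell. *SESN2* was not past the threshold with CRISPR-DREAM or the SAM system. *TRIB3* (chr20:362835-397560), a pseudokinase that acts back on ATF4, was at 289 and 290.2 CPM in the controls, 209 and 197 CPM with CRISPR-DREAM, 203 and 178 CPM with the SAM system and 146 and 137 CPM with dCas9-VPR. Its control pair lay above all other libraries and its dCas9-VPR pair below them. On the log2 scale the changes were -0.51, -0.60 and -1.03 (standard error 0.07 in each, limma adjusted p = 0.000436, 0.000123 and 1.72e-05).

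*DDIT4* (chr10:72273924-72276037), an inhibitor of mTORC1 signalling, had a different order of the groups. It was at 634 and 646 CPM in the controls, 353 and 396 CPM with CRISPR-DREAM, 419 and 408 CPM with the SAM system and 497 and 531 CPM with dCas9-VPR. Here the dCas9-VPR pair lay between the control and the other activators. The log2 fold changes were -0.77, -0.63 and -0.32 (standard error 0.06 in each, limma adjusted p = 1.73e-05, 5.31e-05 and 0.00684), and the last was not past the threshold without control replicate 2 or dCas9-VPR replicate 1.

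*CHAC1* (chr15:40952962-40956513), which breaks down glutathione, was at 112 and 118 CPM in the control libraries and at 83.8 and 74.8, 79.5 and 71.4, and 78.0 and 75.8 CPM with CRISPR-DREAM, SAM and dCas9-VPR. The activator libraries overlapped one another and lay below the control. It fell by 0.53, 0.60 and 0.57 on the log2 scale (standard error 0.07 in each, limma adjusted p = 0.000604, 0.00021 and 0.00116). *PPP1R15A* (chr19:48872421-48876059), the GADD34 subunit of the phosphatase that dephosphorylates eIF2, was at 63.6 and 59.4 CPM in the controls, 48.6 and 41.8 CPM with CRISPR-DREAM, 51.2 and 48.1 CPM with the SAM system and 38.7 and 35.6 CPM with dCas9-VPR. It fell by 0.44, 0.31 and 0.72 on the log2 scale (standard error 0.08 in each, limma adjusted p = 0.00353, 0.0141 and 0.000697), and the SAM call ended without control replicate 1 or SAM replicate 2. *SESN2*, a leucine-sensing regulator of mTORC1, was at 301 and 269 CPM in the control libraries and at 227 and 212 CPM with dCas9-VPR, where it fell (log2 fold change -0.38), a call lost without control replicate 1 or either dCas9-VPR replicate. In an alternative fit that left out no library its limma adjusted p reached 0.068. Its values with CRISPR-DREAM (283 and 239 CPM) and the SAM system (293 and 273 CPM) overlapped the control.

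**Figure D2:**
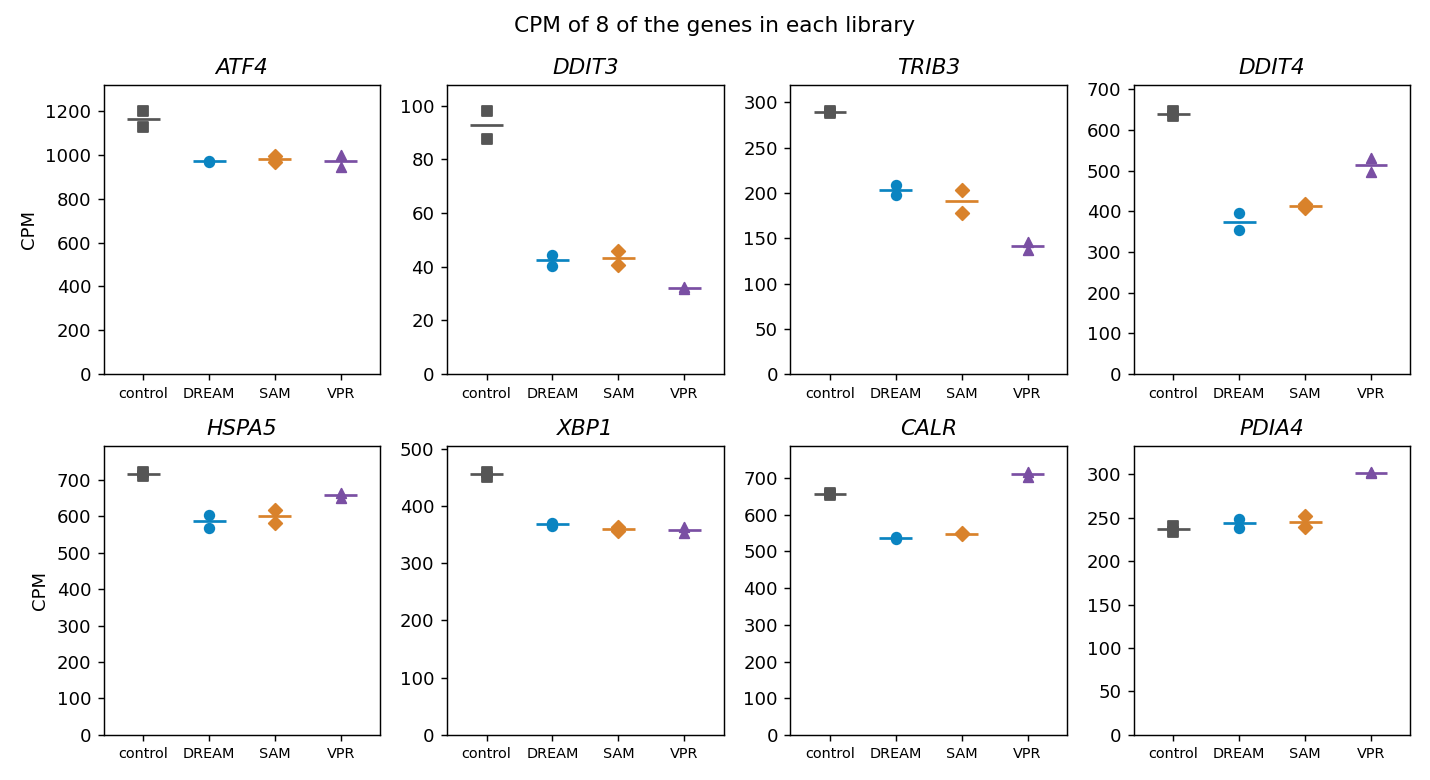
CPM of 8 of the genes in each library, by group, with points for libraries and a line at the group mean. *DDIT3* and *TRIB3* are lowest with dCas9-VPR, *DDIT4* is lowest with CRISPR-DREAM, and the dCas9-VPR libraries of *CALR*, at 717 and 704 CPM, lie above the control.

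Among the enzymes of amino acid and mitochondrial folate metabolism, 3, 4 and 1 of 8 fell with CRISPR-DREAM, SAM and dCas9-VPR, and 0 rose, where 9.25%, 8.89% and 6.68% of all genes fell. *PHGDH* and *PSAT1*, which catalyse the opening steps of serine synthesis, fell with CRISPR-DREAM (log2 fold changes -0.25 and -0.26) and the SAM system (-0.21 and -0.20). *PHGDH* was at 1276 and 1230.3 CPM in the controls, 1068 and 1045 CPM with CRISPR-DREAM, 1113 and 1056 CPM with the SAM system and 1184 and 1155 CPM with dCas9-VPR. *PSAT1* was at 934 and 914 CPM in the controls, 759 and 783 CPM with CRISPR-DREAM, 802 and 801 CPM with the SAM system and 897 and 879 CPM with dCas9-VPR. In both genes the dCas9-VPR pair was the closest to the control, with differences that were not past the threshold (log2 fold changes -0.10 and -0.06). The *PHGDH* call with the SAM system was lost without SAM replicate 2.

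*PSPH*, the last enzyme of the serine pathway, ranged from 97.3 to 115 CPM over the 8 libraries with no difference past the threshold. *ASNS*, asparagine synthetase and a much used reporter of ATF4 activity, was at 1058 and 1072 CPM in the controls, 969 and 930.2 CPM with CRISPR-DREAM, 957 and 902 CPM with the SAM system and 999 and 958 CPM with dCas9-VPR. Its log2 fold changes of -0.16, -0.20 and -0.12 were small, and only the first 2 were past the threshold (limma adjusted p = 0.0297, 0.00881 and 0.107). In alternative fits that left out no library the limma adjusted p of those 2 reached 0.119 and 0.0542. Leaving out control replicate 2 ended both *ASNS* calls. *ASNS* shares its strand with the overlapping gene *AC079781.5*, so reads could be split between them, and the same holds for *NUPR1* and *AC020765.6*.

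*SHMT2*, a mitochondrial serine hydroxymethyltransferase, was at 999 and 1032 CPM in the control libraries and at 867 to 944 CPM with the activators. It fell with the SAM system and dCas9-VPR (log2 fold changes -0.21 and -0.23), the latter not without control replicate 2 or either dCas9-VPR replicate, and was at -0.13 with CRISPR-DREAM (limma adjusted p = 0.0501). With dCas9-VPR the limma adjusted p reached 0.0622 in an alternative fit that left out no library. *MTHFD2* (708 to 819.5 CPM), *ALDH1L2* (77.7 to 100.5 CPM) and *PCK2* (269 to 293 CPM), also mitochondrial enzymes, had no difference past the threshold in any comparison.

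Of the 4 amino acid transporter genes, *SLC3A2* fell with each activator and the other 3 had no difference past the threshold. *SLC3A2*, the heavy chain that carries light chains such as SLC7A5 to the cell surface, was at 481 and 491 CPM in the controls, 352 and 363 CPM with CRISPR-DREAM, 357 and 371 CPM with the SAM system and 348 and 347 CPM with dCas9-VPR. Its log2 fold changes were -0.44, -0.41 and -0.48 (standard error 0.05 in each, limma adjusted p = 9.66e-05, 0.000115 and 0.000198). *SLC7A5*, its leucine-carrying light chain, had log2 fold changes of 0.16, 0.11 and 0.20 (standard error 0.11 in each), with 400.4 and 345 CPM in the controls and 367 to 460.3 CPM with the activators. *SLC7A1* (247 to 324 CPM) and the glycine transporter *SLC6A9* (24.5 to 30.0 CPM) overlapped between the control and at least 1 activator group.

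The receptor *VLDLR* and the secreted glycoprotein *STC2* fell with CRISPR-DREAM and the SAM system. *STC2* was at 116 and 101 CPM in the controls, 86.8 and 74.0 CPM with CRISPR-DREAM, 90.9 and 80.0 CPM with the SAM system and 92.8 and 95.01 CPM with dCas9-VPR, and both *STC2* calls ended without control replicate 1. *VLDLR* was at 17.5 and 16.6 CPM in the controls, 14.6 and 12.9 CPM with CRISPR-DREAM, 14.6 and 12.8 CPM with the SAM system and 17.2 CPM in both dCas9-VPR libraries. Its calls had limma adjusted p of 0.0473 and 0.0314, and both were lost without either control replicate. With CRISPR-DREAM the limma adjusted p reached 0.103 in an alternative fit that left out no library.

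By the study's own threshold, a fold change above 2 with a false discovery rate below 0.05, *DDIT3* was the 1 gene of the ATF4 arm past it in the CRISPR-DREAM and the SAM comparisons. With dCas9-VPR *DDIT3* and *TRIB3* passed it. In the same direction 0.503%, 0.456% and 0.641% of all genes tested were past that threshold with CRISPR-DREAM, SAM and dCas9-VPR, and 0 of the 17 genes of the ER chaperone arm were.

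In the ER chaperone arm, 5 of the 17 genes fell with CRISPR-DREAM (*HSPA5*, *CALR*, *SDF2L1*, *HERPUD1* and *XBP1*) and 0 rose. The same 5 and *PDIA6* fell with the SAM system and *SEL1L* rose. With dCas9-VPR *HERPUD1* and *XBP1* fell and *PDIA4* rose. Of all genes tested 9.25%, 8.89% and 6.68% fell and 18.8%, 35.7% and 11% rose in these comparisons. Each of the 6 activator libraries lay below both control libraries for 3 of the 17 genes (17.6%), *HSPA5*, *HERPUD1* and *XBP1*, against 9.17% of all genes tested. Under median-of-ratios scaling 7, 11 and 3 genes fell and 0, 0 and 1 rose with the 3 activators in that order, where 13.2%, 18.1% and 9.16% of all genes fell and 14.5%, 20.9% and 7.78% rose.

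The median log2 fold changes of the ER chaperone arm were -0.11, -0.11 and 0.04. They became -0.17, -0.26 and -0.01 under median-of-ratios scaling, so the sign with dCas9-VPR turned. Leaving out 1 library gave -0.18 (control replicate 2) to -0.06 (control replicate 1) with CRISPR-DREAM, and -0.15 (control replicate 2) to -0.07 (control replicate 1 or SAM replicate 2) with the SAM system. With dCas9-VPR the median was -0.0036 without control replicate 2, 0.0059 without dCas9-VPR replicate 1, 0.08 without control replicate 1 and 0.10 without dCas9-VPR replicate 2.

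*XBP1* (chr22:28794555-28800598), whose spliced mRNA encodes the transcription factor of the IRE1 branch, was at 451 and 459 CPM in the controls, 365 and 371 CPM with CRISPR-DREAM, 363 and 357 CPM with the SAM system and 363 and 352 CPM with dCas9-VPR. The 6 activator libraries lay together below the control, as for *ATF4*. Log2 fold changes were -0.31, -0.34 and -0.35 (standard error 0.04 in each, limma adjusted p = 0.000761, 0.000303 and 0.00108). CPM per gene does not separate spliced from unspliced *XBP1*.

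*HERPUD1*, an ER membrane protein of the degradation machinery, followed a like order, with 148 and 161 CPM in the controls, 111 and 122 CPM with CRISPR-DREAM, 114 and 123 CPM with the SAM system and 112 and 113 CPM with dCas9-VPR. It fell by 0.40, 0.38 and 0.45 on the log2 scale (standard error 0.07 in each, limma adjusted p = 0.00166, 0.00145 and 0.00229). *HERPUD1* was the 1 gene of the ER chaperone arm whose promoter window held both a CARE core and an ERSE-II, as printed above.

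Of the 8 chaperones and cochaperones, *HSPA5*, *CALR* and *SDF2L1* fell in the comparisons of CRISPR-DREAM and SAM with the control and 0 fell with dCas9-VPR, where 9.25%, 8.89% and 6.68% of all genes fell. *HSPA5* (chr9:125234853-125241344), which encodes BiP, the main HSP70 of the ER, was at 709 and 722 CPM in the controls, 604 and 568 CPM with CRISPR-DREAM, 618 and 581 CPM with the SAM system and 665 and 650.3 CPM with dCas9-VPR. The dCas9-VPR pair lay between the control and the other activators. On the log2 scale the changes were -0.29, -0.26 and -0.12 (standard error 0.05 in each, limma adjusted p = 0.00231, 0.00268 and 0.119).

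*CALR* (chr19:12938578-12944490), the lectin chaperone calreticulin, was at 660.1 and 654 CPM in the controls, 539 and 535 CPM with CRISPR-DREAM, 547 and 551 CPM with the SAM system and 717 and 704 CPM with dCas9-VPR. The groups did not overlap, and the dCas9-VPR pair lay on the other side of the control. The log2 fold changes were -0.29, -0.26 and 0.11 (standard error 0.04 in each, limma adjusted p = 0.000781, 0.000914 and 0.0887). *SDF2L1* (chr22:21642302-21644300), a partner of ER DnaJ proteins, was at 39.6 and 40.3 CPM in the controls, 28.7 and 32.8 CPM with CRISPR-DREAM, 27.4 and 27.2 CPM with the SAM system and 38.3 and 40.3 CPM with dCas9-VPR. Its dCas9-VPR libraries overlapped the control, and its log2 fold changes were -0.38, -0.54 and -0.02 (standard error 0.08 in each, limma adjusted p = 0.00588, 0.000513 and 0.854).

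The other chaperones and cochaperones had no difference from the control past the threshold. *HSP90B1*, the ER form of HSP90, was at 445 and 418 CPM in the controls, 411 and 349 CPM with CRISPR-DREAM, 395 and 365 CPM with the SAM system and 461 and 428 CPM with dCas9-VPR. The HSPA5 cochaperone genes *DNAJB9* (33.4 to 37.4 CPM), *DNAJC3* (35.9 to 45.9 CPM) and *DNAJB11* (58.2 to 67.0 CPM) stayed within those ranges over the 8 libraries, and *HYOU1*, a large HSP70-like chaperone, ranged from 186 to 226 CPM.

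Of the disulfide isomerase genes, *PDIA4* (chr7:149003062-149028663) was at 241 and 234 CPM in the controls, 249 and 238 CPM with CRISPR-DREAM, 252 and 239.8 CPM with the SAM system and 302 and 303 CPM with dCas9-VPR. The dCas9-VPR pair lay above all other libraries. Log2 fold changes were 0.04, 0.05 and 0.35 (standard error 0.05 in each, limma adjusted p = 0.609, 0.434 and 0.00187). *PDIA6* was at 476 and 480.3 CPM in the controls, 441 and 448 CPM with CRISPR-DREAM, 436 and 439 CPM with the SAM system and 509.5 and 506 CPM with dCas9-VPR. It fell with the SAM system (log2 fold change -0.13, limma adjusted p = 0.0318), a call lost on leaving out any 1 of the control, SAM or dCas9-VPR libraries. In an alternative fit that left out no library its limma adjusted p reached 0.121. *PDIA3* ranged from 302 to 343 CPM with no difference past the threshold.

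*SEL1L*, a scaffold of the HRD1 degradation complex, was at 88.3 and 86.7 CPM in the controls, 99.5 and 88.9 CPM with CRISPR-DREAM, 106 and 96.4 CPM with the SAM system and 87.1 and 82.2 CPM with dCas9-VPR. Its rise with the SAM system (log2 fold change 0.21, limma adjusted p = 0.036) became 0.06 under median-of-ratios scaling and was then not past the threshold, nor was it without either control replicate or SAM replicate 1. *EDEM1* (39.8 to 53.9 CPM), which delivers misfolded glycoproteins for degradation, and the secreted ER proteins *CRELD2* (26.0 to 35.9 CPM) and *MANF* (98.5 to 118 CPM) had no difference from the control past the threshold.

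**Figure D3:**
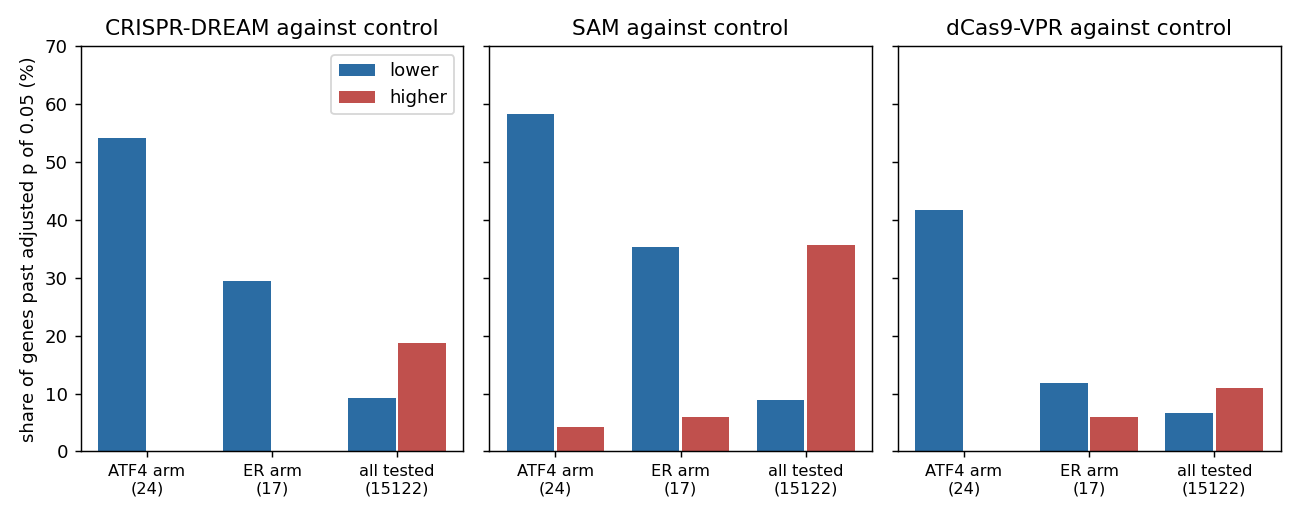
Bars give the percent of genes past adjusted p below 0.05, higher and lower than the control, in the amino acid/ATF4 arm, the ER chaperone arm and all genes tested, for each activator. The bars for lower genes of the ATF4 arm stand above the 6.68% to 9.25% of all genes, and the ER chaperone arm has 2 of its 17 genes lower with dCas9-VPR.

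The promoter elements printed above can be set beside these values. An ERSE or ERSE-II was in the windows of 9 of the 16 genes of the ER chaperone arm, against 0.161% of all genes, a joint class formed after the values were seen. The genes of this arm with a window that fell all belonged to those 9, with 5, 6 and 2 of the 9 lower with CRISPR-DREAM, SAM and dCas9-VPR and 0 of the 7 without. *HSP90B1*, *HYOU1* and *CRELD2* held an element and did not pass the threshold. *PDIA4*, which rose with dCas9-VPR, held neither. In the ATF4 arm, 4, 4 and 3 of the 5 genes with a CARE core fell, and 9, 9 and 6 of the 15 without. Of all genes tested 9.25%, 8.89% and 6.68% fell in these comparisons. The difference between genes with and without an element was not tested. All these counts are under the main scaling. Under median-of-ratios scaling 11 genes of the ER chaperone arm fell with the SAM system, so genes outside the 9 were among them.

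The level of each arm as a whole was taken as its summed CPM, in which the most abundant genes weigh most. The 24 genes of the ATF4 arm summed to 9813 and 9748 CPM in the controls, 8533 and 8230.4 CPM with CRISPR-DREAM, 8601 and 8195 CPM with the SAM system and 8643 and 8481 CPM with dCas9-VPR. The 17 genes of the ER chaperone arm summed to 4113 and 4075 CPM in the controls, 3701 and 3567 CPM with CRISPR-DREAM, 3707 and 3581 CPM with the SAM system and 4162 and 4046 CPM with dCas9-VPR. The dCas9-VPR sums thus lay below the control in the ATF4 arm and overlapped it in the ER chaperone arm. In the latter 10 of the 17 log2 fold changes with dCas9-VPR were positive and 7 negative, so changes in both directions enter the sum.

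The activators were also compared with one another in the same fit. Between CRISPR-DREAM and the SAM system 0 of the 41 genes were past the threshold by limma, and 2 had an unadjusted p below 0.05. That count was not 0 in a fit with a replicate block, which is given with the processing below. Of all genes tested 1.59% were higher and 9.14% lower with CRISPR-DREAM. The differences of the 41 genes ran from -0.23 to 0.17 on the log2 scale, and the widest bounds of their 95% intervals were -0.45 and 0.34. For *ATF4* the difference was -0.02 and for *DDIT3* -0.03.

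CRISPR-DREAM and dCas9-VPR differed in 8 of the 41 genes. *DDIT3* and *TRIB3* were higher with CRISPR-DREAM, by 0.39 and 0.52 on the log2 scale (limma adjusted p = 0.0148 and 0.00141), where 7.9% of all genes were higher. *DDIT4*, *PSAT1*, *CALR*, *PDIA4*, *PDIA6* and *SDF2L1* were lower with CRISPR-DREAM, with log2 differences of -0.46, -0.20, -0.40, -0.31, -0.19 and -0.35, where 5.21% of all genes were lower. The values for *DDIT4*, *TRIB3* and *CALR* were past the threshold under every other scaling, filter and fit and without any 1 library. Leaving out dCas9-VPR replicate 2 ended the calls of *DDIT3*, *PSAT1*, *PDIA4*, *PDIA6* and *SDF2L1*, which left 2 genes of the ATF4 arm and 1 of the ER chaperone arm.

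The SAM system and dCas9-VPR differed in 14 of the 41 genes. *TRIB3*, *DDIT3*, *PPP1R15A*, *NUPR1*, *SESN2* and *SEL1L* were higher with the SAM system, with log2 differences of 0.43, 0.42, 0.41, 0.41, 0.37 and 0.26, where 23.6% of all genes were higher. *SDF2L1*, *CALR*, *VLDLR*, *DDIT4*, *PDIA4*, *PDIA6*, *MANF* and *PSAT1* were lower, with log2 differences of -0.52, -0.37, -0.32, -0.31, -0.30, -0.21, -0.19 and -0.15, where 6.32% of all genes were lower. Under every other scaling, filter and fit and without any 1 library, those past the threshold were *DDIT3*, *DDIT4*, *TRIB3*, *CALR*, *PDIA4*, *PDIA6* and *SDF2L1*. Without dCas9-VPR replicate 2 the ATF4 arm had 3 genes past the threshold in place of 8. Under median-of-ratios scaling 15.9% of all genes were higher and 12.1% lower, and the ER chaperone arm had 10 genes lower and 0 higher.

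**Figure D4:**
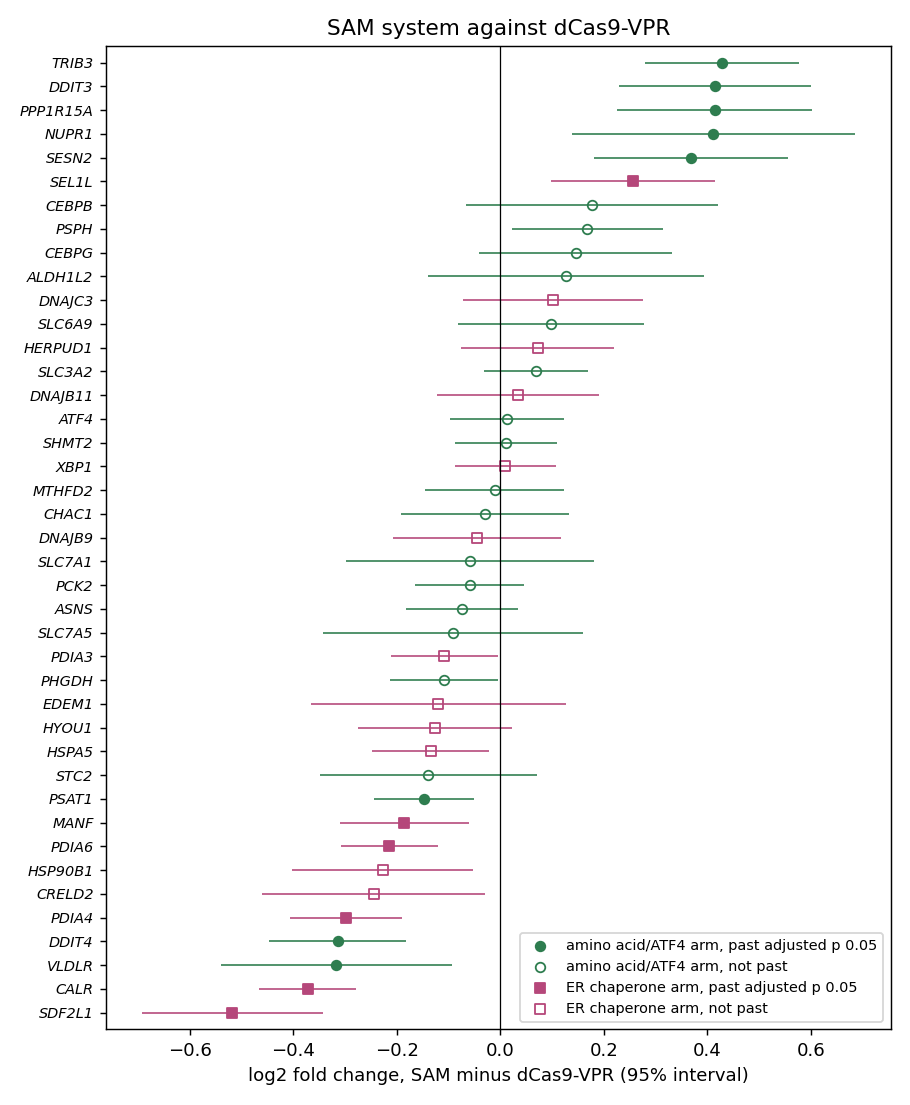
Log2 difference between the SAM system and dCas9-VPR for the 41 genes, with 95% intervals from limma and colour by arm. Filled points were past adjusted p below 0.05, 6 of them to the right of 0, higher with the SAM system (*TRIB3*, *DDIT3* and *PPP1R15A* at the top), and 8 to the left, higher with dCas9-VPR (*SDF2L1* and *CALR* at the bottom).

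A further 102 genes of these pathways, in 6 lists, were measured. The counts below are to be read beside the 9.25%, 8.89% and 6.68% of all genes that fell and the 18.8%, 35.7% and 11% that rose with CRISPR-DREAM, SAM and dCas9-VPR. Of the 102 genes 8 rose and 15 fell with CRISPR-DREAM, 17 rose and 21 fell with the SAM system, and 6 rose and 17 fell with dCas9-VPR. Further ATF4 targets fell in 8, 9 and 10 of 26 genes and rose in 0, 2 and 1, with medians of -0.08, -0.11 and -0.14. Aminoacyl-tRNA synthetases, which charge tRNAs with amino acids, fell in 5, 6 and 6 of 18 and rose in 1, 2 and 0. Of the partner transcription factors 1 of 6, *ATF3*, fell in each comparison and 0 rose.

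Of 12 sensors and transducers 1, 5 and 0 rose and 0 fell in any of the 3 comparisons. Of 16 further ER folding genes 2, 2 and 2 rose and 1, 1 and 0 fell. Of 24 genes for ER-associated degradation and secretion 4, 6 and 3 rose and 0, 4 and 0 fell.

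*INHBE*, a subunit of activin E and an ATF4 target, had the largest change of the 102 genes in each comparison with the control. It was at 60.4 and 74.0 CPM in the controls, 37.4 and 32.9 CPM with CRISPR-DREAM, 34.0 and 32.5 CPM with the SAM system and 29.9 and 30.5 CPM with dCas9-VPR. On the log2 scale the changes were -0.92, -0.997 and -1.13 (standard error 0.10 in each, limma adjusted p = 0.000137, 6.91e-05 and 0.000133). *ATF3*, a bZIP factor induced by many stresses, was at 235 and 252 CPM in the control libraries and between 158 and 171 CPM in the 6 activator libraries, with log2 fold changes of -0.53, -0.57 and -0.60.

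*KDELR3*, a receptor that returns escaped chaperones to the ER, moved the other way, from 29.2 and 35.4 CPM in the control to 45.3 and 54.6 CPM with CRISPR-DREAM, 51.3 and 60.8 CPM with the SAM system and 47.4 and 48.6 CPM with dCas9-VPR. It rose by 0.62, 0.79 and 0.57 on the log2 scale (limma adjusted p = 0.00397, 0.000702 and 0.0115). *FGF21*, a stress-induced hormone, was at 4.43 and 5.15 CPM in the controls, 3.64 and 2.98 CPM with CRISPR-DREAM, 3.602 and 3.33 CPM with the SAM system and 2.23 and 1.83 CPM with dCas9-VPR. Its log2 fold changes were -0.48, -0.41 and -1.07 (limma adjusted p = 0.0423, 0.05001 and 0.0021), so the SAM value was not past the threshold. *CARS1*, cysteinyl-tRNA synthetase, was at 201 and 219 CPM in the controls, 159 and 149.9 CPM with CRISPR-DREAM, 157 and 156 CPM with the SAM system and 139.9 and 136 CPM with dCas9-VPR. It fell with each activator (log2 fold changes -0.44, -0.42 and -0.60, limma adjusted p = 0.000441, 0.000375 and 0.000231).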

How the data were processed

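RNA-seq was analysed in 8 HEK293T libraries, 2 per group, grouped by their labels. The authors aligned reads with STAR 2.7.3a to hg38 and deposited CPM values, with 0.0001 added to each, which was removed. Their DESeq2 comparisons were not used. The labels name polyA RNA but a stranded total RNA kit. The deposited values are not counts, and 62.8% to 67.5% of values below 0.6 CPM were whole multiples (within 0.02 reads) of the CPM of 1 read, so no count test was run. Log2(CPM + 0.5) was fitted with limma 3.58.1 (R 4.3.3) with a trend, robust variances and a mean for each group. A gene was kept where 2 or more libraries reached 1 CPM, and p-values were Benjamini-Hochberg adjusted over 15122 genes.

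On simulated data for CRISPR-DREAM against the control, 27 of 50 genes with a log2 change of 0.5 and 48 of 50 with a change of 1 were called. So were 14 of 14327 unchanged genes. In such data smaller changes, the size of most described here, could be missed. The simulation changed few genes and gave all the same spread beyond read sampling. Its counts therefore do not give the sensitivity for the genes described here.

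The 41 genes, the arms, the further lists and the tests were chosen with earlier results of these data known. Genes with a log2 change of at least 0.5 past the threshold in a comparison with the control, and *ATF4*, *DDIT3*, *XBP1* and *HSPA5*, were described in full, and among further genes the 3 with the largest change past the threshold in each comparison. Full values of other members were chosen after they were seen. Gene positions are those of the files. Promoter sequences came from RefSeq (GRCh38.p14). *PSPH*, *SHMT2*, *ALDH1L2*, *NUPR1* and *PDIA3* had no match. Of the 41 genes 17 overlap another gene of the files. Protein sequences were not analysed here. The markers *PTPRC*, *ALB*, *COL1A2* and *CD3E* were looked for and were not among the genes of the files. Alternatives were other scalings, pseudocounts, filters, fits and thresholds, and leaving out each library.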

Additional observations from a re-analysis of the deposited data

How the results depend on the processing

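Of the 75 calls among the 41 genes, none changed direction under the alternatives run, which were median-of-ratios scaling, pseudocounts of 0.1 and 1, no filter, a filter at 10 CPM, a replicate block, no trend or robust option, only the groups compared, and leaving out each library. The calls that stayed past the threshold under all of them were 14 of 18 with CRISPR-DREAM, 13 of 22 with the SAM system, 8 of 13 with dCas9-VPR, 3 of 8 between CRISPR-DREAM and dCas9-VPR and 7 of 14 between the SAM system and dCas9-VPR. No trend or robust option ended 19 calls, median-of-ratios scaling 4, only the groups compared 5, no filter 1, and the pseudocounts, the filter at 10 CPM and the replicate block 0, while leaving out 1 library ended 1 to 20. A test on read counts was not run, since whole reads could not be recovered. Median-of-ratios scaling gave 0 genes of each arm higher with the SAM system in place of 1, 11 of the ER chaperone arm lower in place of 6, medians with the SAM system of -0.36 (ATF4 arm) and -0.26 (ER chaperone arm), 7 genes of the ATF4 arm past the threshold between CRISPR-DREAM and dCas9-VPR in place of 4, and 10 of the ER chaperone arm between the SAM system and dCas9-VPR in place of 6. A fold change above 2 left 1, 1 and 2 genes of the ATF4 arm lower with CRISPR-DREAM, SAM and dCas9-VPR, 0 higher with the SAM system, and 0 genes of the ER chaperone arm in either direction. Without the trend and robust options the ATF4 arm had 6 genes lower with dCas9-VPR, 2 past the threshold between CRISPR-DREAM and dCas9-VPR, and both arms had 0 higher with the SAM system. With only the groups compared, 2 genes of the ER chaperone arm differed between CRISPR-DREAM and dCas9-VPR. The labels number the replicates 1 and 2 in each group without saying that a number marks a shared day or batch, and with 2 numbers the pairing could not be established (correlations of the replicate differences between groups were 0.133 to 0.326). With the replicate block the ATF4 arm had 1, 3 and 1 genes higher with CRISPR-DREAM, SAM and dCas9-VPR, and 2, 11 and 13 past the threshold between CRISPR-DREAM and the SAM system, CRISPR-DREAM and dCas9-VPR, and the SAM system and dCas9-VPR. The ER chaperone arm had 2 and 3 higher with the SAM system and dCas9-VPR with the block, and 2, 9 and 11 past the threshold between the activators in the same order. The shares of all genes past the threshold with the block are not given here, so these counts cannot be set beside a background. Leaving out each library, which leaves a group with 1 library assumed to vary like the rest, gave for the ATF4 arm 0 to 1 genes higher and 8 to 14 lower with the SAM system, 6 to 10 lower with dCas9-VPR, 2 to 6 past the threshold between CRISPR-DREAM and dCas9-VPR and 3 to 8 between the SAM system and dCas9-VPR. It gave for the ER chaperone arm 0 to 1 higher with the SAM system, 0 to 2 past the threshold between CRISPR-DREAM and the SAM system (2 without CRISPR-DREAM replicate 1) and 1 to 6 between CRISPR-DREAM and dCas9-VPR. Where no construction of the alternative shows it, the cause was not tested.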

Other observations

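Replicate 1 was above replicate 2 in all 4 groups for 10 of the 24 genes of the amino acid/ATF4 arm, among them *SLC7A5*, *SLC7A1*, *SESN2* and *PHGDH*, and for 8 of the 17 genes of the ER chaperone arm, among them *HSP90B1*, *HYOU1*, *EDEM1* and *SEL1L*. It was below replicate 2 in all 4 groups for 0 and 2 genes of the arms (*DNAJB9* and *HERPUD1*). Over all genes tested the shares were 22.9% and 13%. *SLC7A5*, for example, was at 400.4 CPM in replicate 1 and 345 CPM in replicate 2 of the control, 460.3 and 373 CPM with CRISPR-DREAM, 436 and 367 CPM with the SAM system and 441 and 412 CPM with dCas9-VPR.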
